A study of Mus musculus with 2 samples.

Results

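Of 22176 protein-coding transcription start sites (TSSs) that could be tested in mouse embryonic stem cells (mESCs), 739 (3.33%) were enriched for both Msl1 and Nsl1 reads in chromatin immunoprecipitation followed by sequencing (ChIP-seq). These TSSs were chosen by their reads. In each library the distinct reads within 500 bases of the TSS were 4 or more times the local level, which is the level per kb from 5 to 50 kb on both sides. In addition, the reads within 2 kb, scaled to the size of each library, had a quotient of Msl1 over Nsl1 over 0.65 and under 2.5. The threshold in the Msl1 library alone was passed by 2173 TSSs (9.8%) and that in the Nsl1 library alone by 3363 (15.2%). Another 124 TSSs passed both thresholds with a ratio outside the bounds, 1310 passed only that of Msl1, 2500 passed only that of Nsl1 and 17503 passed neither. Because the counts within 500 bases and the ratio selected the TSSs, both are given below as a description.

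Chromatin came from wild-type (wt) male mESCs, labelled E14, passage P26 and genetic background 129P2/OlaHsd, and was cross-linked with formaldehyde and sheared before precipitation. E14 is an established mouse line. The cells had been grown on feeder cells and then kept for a passage without them, and neither sample carried an allele or a treatment. A rabbit polyclonal antibody against Msl1 (3208) gave one sample and one against Nsl1 (3130) the other, with 1 library per antibody. No test between the antibodies was therefore possible, no p-value is given, and all intervals are exact 95% intervals. Those of read counts and their ratios cover counting error only. Those of shares and medians treat TSSs as independent and leave out the counting error that can move a TSS across a threshold. None covers variation between libraries. The libraries were also prepared with different kits and read to different lengths, 50 bases for Msl1 and 36 bases for Nsl1, so that the antibody and the preparation cannot be told apart.

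Msl1 and Nsl1 are scaffold subunits that each assemble a separate complex around the histone acetyltransferase Mof. The MSL complex is known for acetylating lysine 16 of histone H4 and, in flies, for dosage compensation of the male X chromosome. The NSL complex is known for binding the promoters of housekeeping genes. A TSS enriched in both libraries is one at which reads of both antibodies exceeded the local level in the same cell population, which does not show that both complexes lay there in the same cell or on the same allele.

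The promoters of 4 of these TSSs are shown because they combined the highest levels in both libraries with the motifs counted below. They are the 250 bases before the TSS on mm9, 5′ to 3′ along the gene, at chr9:18096461-18096710 (+ strand) for Chordc1, chr7:69565040-69565289 (- strand) for Mkrn3, chr5:130006856-130007105 (+ strand) for Sfswap and chr1:57463519-57463768 (- strand) for 1110034B05Rik. Capitals mark matches to the Ets motif (CCGGAAG), the Sp1 GC box (GGGCGG) or the CCAAT box on either strand.
Chordc1: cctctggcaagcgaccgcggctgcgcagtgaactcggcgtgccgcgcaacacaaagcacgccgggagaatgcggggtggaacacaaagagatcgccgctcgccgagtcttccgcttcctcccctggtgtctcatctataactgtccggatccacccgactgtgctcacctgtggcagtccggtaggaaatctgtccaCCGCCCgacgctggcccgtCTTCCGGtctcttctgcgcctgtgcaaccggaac
Mkrn3: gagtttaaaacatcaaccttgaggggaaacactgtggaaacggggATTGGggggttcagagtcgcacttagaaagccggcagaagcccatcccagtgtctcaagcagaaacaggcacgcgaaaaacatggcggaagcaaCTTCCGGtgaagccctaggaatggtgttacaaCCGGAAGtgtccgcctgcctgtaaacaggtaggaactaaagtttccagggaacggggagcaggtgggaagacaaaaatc
Sfswap: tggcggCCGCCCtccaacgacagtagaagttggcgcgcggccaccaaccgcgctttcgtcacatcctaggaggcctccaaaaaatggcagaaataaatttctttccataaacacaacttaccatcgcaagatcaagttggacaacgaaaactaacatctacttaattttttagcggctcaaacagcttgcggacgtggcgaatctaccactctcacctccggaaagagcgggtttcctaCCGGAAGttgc
1110034B05Rik: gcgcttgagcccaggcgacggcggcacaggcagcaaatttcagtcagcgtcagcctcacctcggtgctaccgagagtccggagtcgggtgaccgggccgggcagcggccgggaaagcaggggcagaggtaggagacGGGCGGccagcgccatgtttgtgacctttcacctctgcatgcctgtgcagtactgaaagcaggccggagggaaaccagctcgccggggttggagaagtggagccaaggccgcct
In Chordc1, which encodes a co-chaperone of Hsp90, the Ets match began 34 bases upstream of the TSS and the GC box 53 bases upstream. In Mkrn3, an imprinted gene of the makorin family, Ets matches began 79 and 111 bases upstream and a CCAAT box 205 bases upstream. In Sfswap, a regulator of splicing, the Ets match began 11 bases upstream. The promoter of 1110034B05Rik held a GC box 114 bases upstream and no Ets match in these bases.

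At Chordc1, 53 Msl1 reads lay within 500 bases of the TSS, 9.04 times the local level (6.68 to 12.01), and 139 Nsl1 reads, 21.6 times (17.8 to 26.1). At Mkrn3 both libraries stood at nearly the same height, with 55 Msl1 reads at 8.78 times and 80 Nsl1 reads at 8.53 times the local level. At Sfswap there were 104 Msl1 reads, 8.47 times, and 129 Nsl1 reads, 9.94 times. At 1110034B05Rik 81 Msl1 reads stood at 8.25 times and 157 Nsl1 reads at 13.1 times. Of the 292 TSSs of the set with at least 50 reads in each library, only Gm10800 and Gm10801 on chromosome 2 were higher in the lower of both libraries, with Msl1 at 94.5 and 79.1 times and Nsl1 at 62.3 and 59.5 times. Before repeated positions were removed, Gm10800 held 99143 Msl1 reads and 89999 Nsl1 reads within 500 bases, against 475 and 443 distinct ones, and its promoter was not rich in CpG (CpG ratio 0.266). In all, 5 of the 739 TSSs held over 20 reads per distinct read in a library, namely Gm10800, Gm10801, Gm10720, Gm10717 and Gm10106. The part of repeated sequence in these levels was not tested.

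Most of the 739 TSSs lay close to the Msl1 threshold. Msl1 reads ranged from 1 to 475 with a median of 47, and their median was 4.75 times the local level (quartiles 4.29 and 5.48). Nsl1 reads ranged from 2 to 443 with a median of 68, at a median of 6.14 times (quartiles 4.86 and 8.18). Across all tested TSSs the medians were 1.82 times for Msl1 and 1.69 times for Nsl1. Nsl1 was higher over its local level than Msl1 at 564 of the 739 TSSs and Msl1 at 175. The lower bounds of both intervals exceeded 2 at 725 TSSs and exceeded 4 at 120, so that for most of them counting error alone could move a value across the threshold. Among TSSs with at least 50 reads within 500 bases in each library, those just inside the Msl1 threshold were Fam57a at 4.0002 and Wdr18 at 4.003 times, and just outside were Eef1b2 and Eif3b, both at 3.99 times. Just inside the Nsl1 threshold were Zfp207 at 4.002 and Brpf1 at 4.04 times, with Ssh2 at 3.996 and Ccl25 at 3.993 times just below it.

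**Figure D1:**
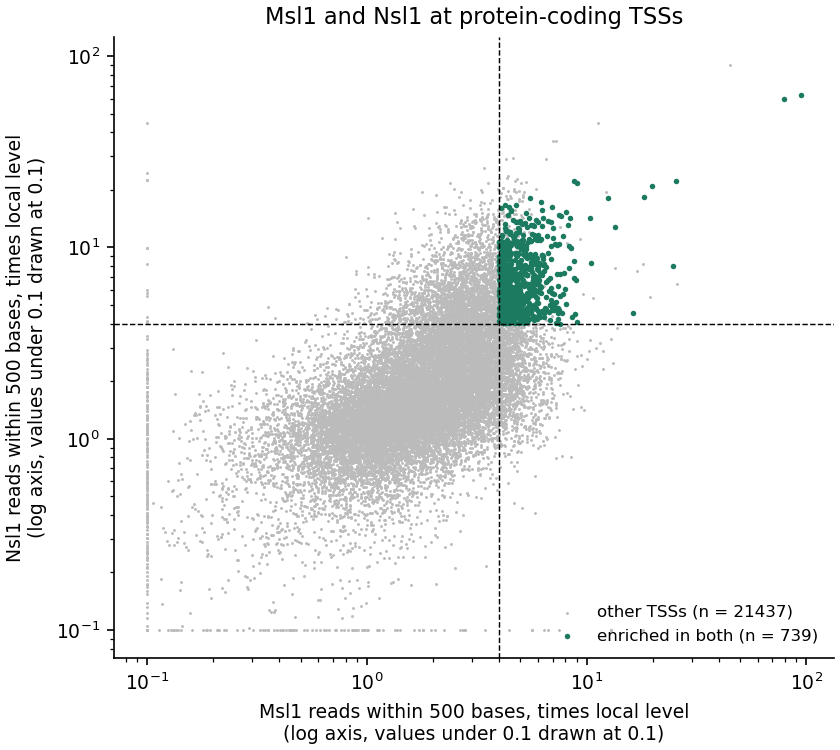
Msl1 against Nsl1 at 22176 protein-coding TSSs, as reads within 500 bases over the local level, on log axes. Green points are the 739 TSSs enriched in both libraries, grey points all others, and dashed lines mark the threshold of 4, so the corner position of the green points follows from the selection.

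This quotient of Msl1 over Nsl1, called the ratio below, had a median of 1.18 (quartiles 0.940 and 1.47). Its interval lay above 1 at 271 TSSs, below 1 at 61 and included 1 at 407. Over all tested TSSs the median ratio was 1.14 (quartiles 0.865 and 1.52), so that a ratio over 1 does not set these TSSs apart. The bounds of the selection also limit the ratio. With the same minimum of 50 reads, nearest the lower bound was Gar1, a component of the H/ACA small nucleolar ribonucleoprotein, with a ratio of 0.653 (0.501 to 0.845). Near the upper bound was Alkbh1, a dioxygenase of the AlkB family, with a ratio of 2.46 (1.95 to 3.13). Part of the set rested on few reads. In 110 TSSs a library held under 30 reads within 500 bases, and at 54 the local level was under 0.5 times the median of their chromosome in a library. Of these 54, 19 carried a symbol of Gm and a number, and an extreme case was Gm14295, with 3 Msl1 and 2 Nsl1 reads. Without these 54 TSSs, 685 were left.

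The position of the reads differed between the antibodies at the same TSSs. Averaged over the set, Msl1 reached its maximum of 8.45 times the local level in the bin from 200 to 250 bases into the gene, and fell to 2.42 times from 100 to 50 bases upstream of the TSS. A lower Msl1 maximum of 4.45 times stood from 400 to 350 bases upstream. The Nsl1 profile had its maximum of 13.9 times in the last 50 bases before the TSS, where Msl1 was near its low point. Bins above the middle of its range spanned 350 bases for Nsl1 and 500 bases for Msl1. From 200 to 1000 bases from the TSS, Msl1 counted 29800 reads downstream and 17428 upstream, a ratio of 1.71 (1.68 to 1.74). For Nsl1 the counts were 18773 and 19440, a ratio of 0.966 (0.946 to 0.985).

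At single TSSs the maxima followed the same arrangement. With at least 50 reads within 1 kb in each library, 609 TSSs could be measured. The median position of the Msl1 maximum was 245 bases into the gene, and that of Nsl1 was 30 bases before its start. The median distance from the Nsl1 to the Msl1 maximum was 285 bases (interval 260 to 305, treating TSSs as independent and therefore too narrow, quartiles 22 and 445). These TSSs include neighbours on opposite strands that share their maxima and count once along each. Msl1 lay downstream of Nsl1 at 461 of the 609 TSSs, which is 75.7% (72.1 to 79.1). The Nsl1 maximum fell within 100 bases of the TSS at 337 TSSs (55.3%), and that of Msl1 at 27 (4.43%). Shares of similar size were found outside the set. Msl1 lay downstream at 76.0% of 434 TSSs enriched only in Msl1 and at 75.1% of 1531 enriched only in Nsl1.

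The widest distances were found at Prpf4b, a kinase of the spliceosome, with Msl1 1270 bases downstream of Nsl1, and at Prpf38b, another splicing factor, with 1040 bases. In the opposite order stood Top2b, which encodes topoisomerase II beta, at -1270.5 bases, and Pibf1 at -1000 bases. Another protein-coding TSS lay 337 bases from that of Pibf1. Top2b held 22 Msl1 and 32 Nsl1 reads within 500 bases of its TSS, and the Nsl1 maximum of Prpf4b lay at -1000 bases, the edge of the stretch searched. At the promoters printed above the Msl1 maximum lay downstream of that of Nsl1 by 390 bases in Chordc1, 263.3 bases in Mkrn3, 150 bases in Sfswap and 200 bases in 1110034B05Rik. The TSS of 9430016H08Rik, also in the set, lay 346 bases from that of 1110034B05Rik on the other strand. Measured along 9430016H08Rik, the distance was -187.5 bases. In Chordc1 the Nsl1 maximum stood 85 bases upstream of the TSS and in Sfswap 10 bases downstream of it.

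A divergent protein-coding TSS, on the other strand and up to 1 kb upstream, was present at 195 of the 739 TSSs, or 26.4% (23.2 to 29.7). With the threshold raised to 6 times in both libraries, which left 73 TSSs, the share was 15.1% (7.77 to 25.4). The share was 22.5% (20.9 to 24.2) in TSSs enriched only in Nsl1, 7.71% (6.32 to 9.29) in those enriched only in Msl1 and 7.27% in all tested TSSs. The partner of a divergent TSS was itself enriched in both libraries in 150 of the 195 cases, only in Nsl1 in 35, only in Msl1 in 6, in both with a ratio outside the bounds in 1 and in neither in 3. The windows of 500 bases on each side overlap for partners less than 1 kb apart, so that the calls of partners rest in part on the same reads. The intervals of these shares treat TSSs as independent and are therefore too narrow. In all, 199 of the 739 TSSs lay within 1 kb of another one of the set, and joining these left 639 loci.

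Because such TSSs lie close together, the windows of both genes overlap and count many of the same reads. Sdhd, the membrane anchor of respiratory complex II, and Timm8b, a chaperone of the mitochondrial intermembrane space, started 52 bases apart. Sdhd held 47 Msl1 and 99 Nsl1 reads within 500 bases and Timm8b 48 and 98. Rpl9, a protein of the large ribosomal subunit, and Lias, the lipoic acid synthase of mitochondria, started 99 bases apart, with 77 and 69 Msl1 reads and 180 and 179 Nsl1 reads. Measured along Rpl9 the Msl1 maximum lay 785 bases downstream and the Nsl1 maximum 130 bases upstream, and along Lias the Msl1 maximum lay at -900 bases. Both genes thus shared one Msl1 maximum, inside Rpl9. At Vps53 and Fam57a, 172 bases apart, Nsl1 stood at 10.6 and 10.7 times the local level and Msl1 at 4.51 and 4.0002 times. These 3 pairs were chosen after their values were seen.

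The Msl1 profile was higher downstream than upstream where a TSS stood alone. At the 463 TSSs with no other protein-coding TSS within 2 kb, Msl1 was highest at 9.78 times the local level from 200 to 250 bases into the gene, and its upstream maximum reached 3.41 times. Msl1 reads from 200 to 1000 bases were there 2.52 times as many downstream as upstream (2.46 to 2.59), and Nsl1 reads 1.05 times (1.03 to 1.08). At 354 of these TSSs with enough reads, Msl1 lay downstream of Nsl1 in 90.7% (87.2 to 93.5), at a median distance of 345 bases (320 to 365). For divergent TSSs such ratios cannot be read in this way. With most partners in the set, most of these loci are counted along both strands. Msl1 reads downstream over upstream gave a ratio of 1.02 (0.987 to 1.05), and Msl1 lay downstream of Nsl1 in 105 of 184. The part of the counting along both strands in these values was not tested. The same ratio for Nsl1 was 0.702 (0.675 to 0.729) at divergent TSSs and 1.10 (1.07 to 1.13) at the 544 others.

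The 75 pairs with both partners in the set were therefore also counted once per locus, in a comparison added after the values above were seen. Reads from 200 to 1000 bases into each gene exceeded 2 times the local level on both sides at 70 of the 75 loci (93.3%, 85.1 to 97.8) for Msl1. At the 463 TSSs that stood alone, the stretches upstream and downstream both did so at 253 (54.6%, 49.98 to 59.2). The side with fewer Msl1 reads held a median of 0.729 times those of the other side at the pairs and 0.375 times at the TSSs alone. For Nsl1 both sides exceeded 2 times the local level at 31 of 75 pairs (41.3%, 30.1 to 53.3) and 215 of 463 TSSs alone (46.4%, 41.8 to 51.1). Both partners of a pair had been selected on reads that overlap these stretches, so the values are a description.

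**Figure D2:**
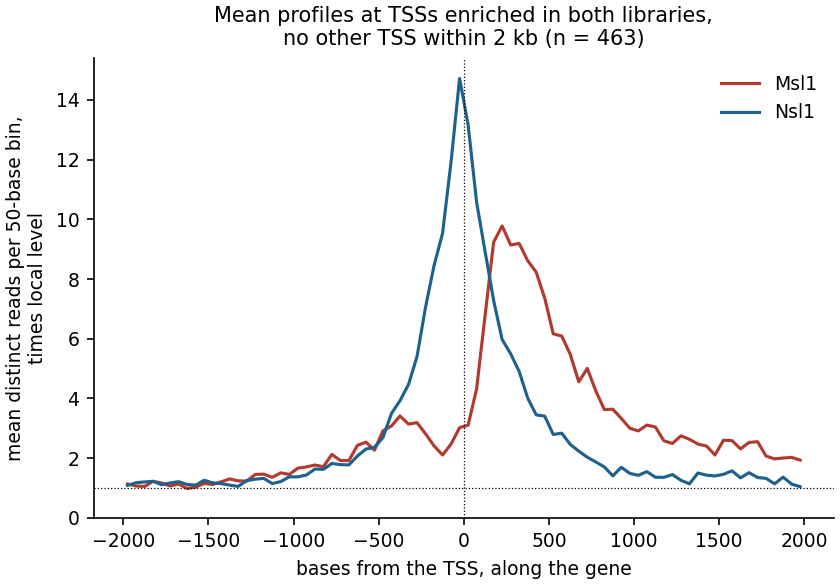
Mean distinct reads per 50-base bin over the local level, by position from the TSS along the gene, at the 463 TSSs of the set with no other protein-coding TSS within 2 kb. Msl1 (red) is highest at 9.78 times from 200 to 250 bases downstream, Nsl1 (blue) at 14.7 times in the last 50 bases before the TSS, and the dotted horizontal line is the local level.

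**Figure D3:**
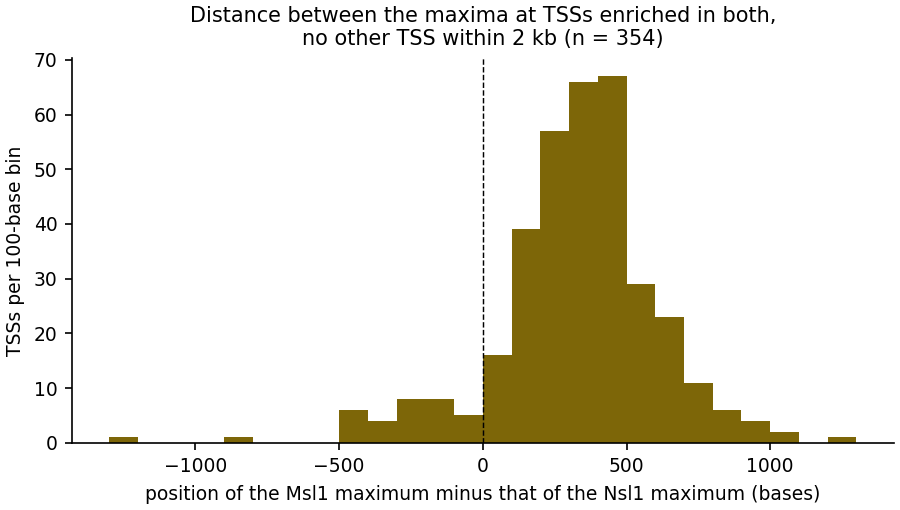
Number of TSSs by the position of the Msl1 maximum minus that of the Nsl1 maximum, in bins of 100 bases, for the 354 TSSs with no other protein-coding TSS within 2 kb and at least 50 reads within 1 kb in each library. Values to the right of the dashed line have Msl1 downstream of Nsl1, which held for 90.7%.

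Farther into the genes, reads from 2 to 5 kb had not been used by the selection, apart from the local level they are divided by. In 340 genes of at least 10 kb with no other protein-coding TSS within 5 kb, Msl1 stood at 1.46 times the local level downstream (1.43 to 1.49) and at 0.901 times upstream (0.882 to 0.921). Msl1 exceeded its local level downstream in 281 of the 340 genes (82.6%). It did so in 86.4% of genes enriched only in Msl1 and 69.9% of those enriched only in Nsl1. The share was 78.6% in genes enriched in both with a ratio outside the bounds and 61.7% in those enriched in neither. Nsl1 was near its local level on both sides, at 1.06 times (1.04 to 1.08) downstream and 1.03 times upstream. Downstream over upstream reads gave 1.62 (1.58 to 1.67) for Msl1 and 1.03 (1.01 to 1.06) for Nsl1. The Msl1 ratio was 1.45 (1.42 to 1.47) at genes enriched only in Msl1, 1.51 (1.49 to 1.53) at those enriched only in Nsl1, 1.65 (1.54 to 1.77) at those enriched in both with a ratio outside the bounds and 1.29 (1.28 to 1.30) at those enriched in neither. The downstream Msl1 level of genes enriched only in Msl1 was 1.51 times (1.497 to 1.53) over pooled reads, above that of the set, but its median per gene was 1.38 times against 1.45 times in the set. The highest Msl1 values stood in 2410141K09Rik with 8.199 times (44 reads) and Clcn4-2, a chloride transporter gene, with 5.45 times (34 reads), both among the 54 TSSs with a low local level. Gm14295, Gm2897, Gm3558, Gm3739 and Zfp534 were listed with 0 Msl1 reads in this stretch.

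The promoters were rich in CpG. In the 300 bases from 250 before to 50 after the TSS, the CpG ratio (observed over expected from the C and G content) had a median of 0.864, against 0.540 over all tested TSSs. A ratio of at least 0.6 was found in 671 of the 739 (90.8%, 88.5 to 92.8), in 83.6% of the TSSs enriched only in Msl1, in 84.4% of those enriched only in Nsl1 and in 45.7% of all. The median GC content of 62.0% lay between that of the TSSs enriched only in Msl1 (67.3%) and only in Nsl1 (58.7%).

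The Ets motif was more frequent in promoters enriched in both libraries than in those enriched only in Msl1. CCGGAAG is the core bound by Ets factors, a large family that includes the housekeeping activator Gabpa. It was found on either strand in 295 of the 739 promoters, or 39.9% (36.4 to 43.6), and in 10.9% of all tested promoters. Without the 54 TSSs of low local level the share was 40.6%. Among promoters enriched only in Nsl1 the share was 36.5% (34.6 to 38.4) and among those enriched only in Msl1 10.3% (8.71 to 12.1). With a CpG ratio of at least 0.6 required, the shares were 41.6% (37.8 to 45.4) in the set and 19.5% in all. At that CpG ratio, promoters enriched only in Nsl1 held it in 38.9% (36.8 to 41.0). Divergent promoters of the set held it in 48.2% (41.0 to 55.5) and the others in 36.9% (32.9 to 41.2), against 28.4% in all divergent promoters. Of the 195 divergent promoters, 150 had a partner in the set. The promoters of such partners overlap, so that a match can count for both and the interval is too narrow. Promoters enriched only in Nsl1 without a divergent TSS held it in 36.1% (33.9 to 38.3). The median match began 33.5 bases upstream of the TSS (quartiles 90 and 4.75 bases upstream), the interval in which the Nsl1 profile was highest and Msl1 low. The 295 TSSs with the motif had a median Nsl1 level of 6.81 times the local level and a median Msl1 level of 4.77 times, and the 444 without it 5.77 and 4.73 times. As these are the levels used in the selection, they are given as a description.

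Other motifs differed less. The Sp1 GC box was present in 65.8% (62.2 to 69.2), more than in all promoters (43.9%) and in those enriched only in Nsl1 (57.2%). It was less frequent than in promoters enriched only in Msl1 (73.8%). With a CpG ratio of at least 0.6 the share was 69.0% (65.35 to 72.5) in the set and 73.1% in all. The Nrf1 core GCATGCGC was found in 7.58% (5.77 to 9.73), in 3.30% of all and in 6.12% of CpG-rich promoters. Promoters enriched only in Nsl1 held it in 8.8% (7.72 to 9.98). AAGATGGCG, bound by Yy1, was found in 6.09% (4.48 to 8.06), in 1.99% of all and in 3.75% of CpG-rich promoters, with a median match beginning 2 bases downstream of the TSS. Its share in promoters enriched only in Nsl1 was 5.04% (4.22 to 5.97), an interval that overlaps that of the set. TGACGTCA, the cyclic AMP response element, reached 5.14% (3.66 to 6.99) against 2.35% of all and 3.98% of CpG-rich promoters. CACGTG, the E-box, reached 11.8% (9.54 to 14.3) against 7.76% of all and 11.2% of CpG-rich promoters. In promoters enriched only in Nsl1 the shares were 5.72% (4.84 to 6.70) and 13.7% (12.4 to 15.1), intervals that overlap those of the set. CCAAT was as frequent as in all promoters, at 37.6% and 37.5%, and ACTACAA, a part of the Znf143 site, reached 4.74% against 3.69%. TATAAA, the TATA box, was found in 4.33% (2.98 to 6.06), against 13.4% of all but 5.83% of CpG-rich promoters. ATGCAAAT, the octamer of Pou5f1 and related factors, was present in 6 promoters (0.812%, 0.299 to 1.76) against 1.77% of all but 1.22% of CpG-rich promoters. Its share was 0.916% in promoters enriched only in Msl1 and 0.72% in those enriched only in Nsl1. A match is a run of letters and not a site shown to be bound.

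**Figure D4:**
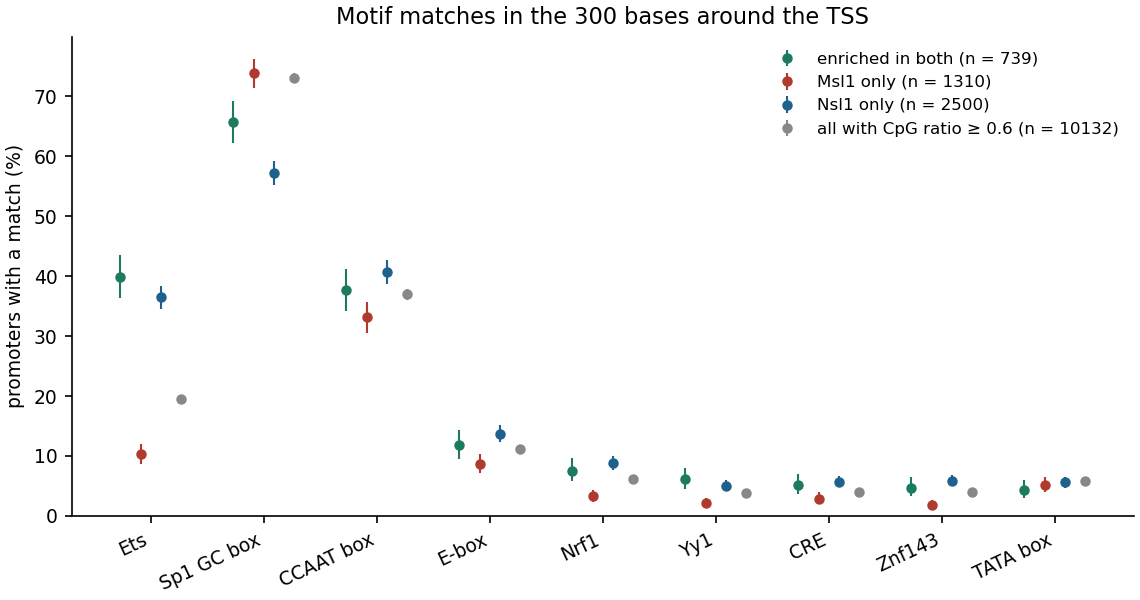
Percent of promoters with a match to each motif on either strand in the 300 bases around the TSS, with exact 95% intervals. Green is the set enriched in both libraries (n = 739), red Msl1 only, blue Nsl1 only and grey all promoters with a CpG ratio of at least 0.6, and for the Ets motif green (39.9%) and blue (36.5%) stand above grey (19.5%) and red (10.3%).

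The genes behind the TSSs were read through lists of shared function, chosen with earlier results of these data known. Of the 739 TSSs, 117 belonged to a list, and the shares below stand beside 3.33% over all tested TSSs. Over all 22176 tested TSSs, 1310 were enriched only in Msl1 and 2500 only in Nsl1, which stand beside the counts for 1 library below. The first lists are those of protein synthesis. Of 36 TSSs of tRNA synthetase genes 8 were in the set (22.2%, 10.1 to 39.2), among them Mars2, the mitochondrial methionyl enzyme, with Msl1 at 5.34 and Nsl1 at 7.20 times, and Tars, the threonyl enzyme, with 6.002 and 5.13 times. Of 57 translation factor TSSs 9 were in the set (15.8%, 7.48 to 27.9), led by Eif2a with 7.87 and 7.34 times and followed by Eif1b and Eif3f. Among the rest of these lists, 13 tRNA synthetase and 17 translation factor TSSs were enriched only in Nsl1, and 2 and 6 only in Msl1. Of 65 ribosome biogenesis TSSs 10 were in the set (15.4%, 7.63 to 26.5). They included Gar1, Nop56, a core protein of box C/D particles, and Utp15 of the small subunit processome. Another 28 were enriched only in Nsl1 and 5 only in Msl1. Of 79 cytosolic ribosomal protein TSSs 7 were in the set (8.86%, 3.64 to 17.4), with Rpl9 at 6.70 and 13.7 times and Rps7 at 4.88 and 8.21 times. In that list 17 others were enriched only in Msl1 and 18 only in Nsl1.

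Mitochondrial genes formed the second group. Of 80 respiratory chain TSSs 11 were in the set (13.8%, 7.07 to 23.3), with Uqcrfs1, the Rieske subunit of complex III, at 6.92 times for Msl1 and 8.73 times for Nsl1, and Ndufb3, an accessory subunit of complex I, at 5.68 and 13.1 times. Of 23 TSSs of mitochondrial import genes 5 were in the set (21.7%, 7.46 to 43.7), among them Timm8b, Timm17a and Tomm70a, an import receptor of the outer membrane. Of 77 mitochondrial ribosomal protein TSSs 8 were in the set (10.4%, 4.59 to 19.4), led by Mrpl17 at 5.56 and 8.09 times. Of the others in that list, 41 were enriched only in Nsl1 and 4 only in Msl1. The counts were 32 and 4 for respiratory chain and 11 and 0 for mitochondrial import genes. Over all 22176 tested TSSs they were 2500 and 1310.

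Other lists of housekeeping machinery held further TSSs of the set. Of 41 proteasome TSSs 6 were in the set (14.6%, 5.57 to 29.2), including Psmb4 of the catalytic core and Psmd6 of the regulatory lid. Of 68 spliceosome TSSs 8 were in the set (11.8%, 5.22 to 21.9), with the Sm protein gene Snrpd3 at 5.64 and 7.43 times and Hnrnpm at 7.13 and 4.73 times. Of 48 TSSs of RNA polymerase II and general factor genes 6 were in the set (12.5%, 4.73 to 25.2), of which 2 carry the symbol Taf9, start at the same base and so count the same reads. In this list Gtf2b, which encodes TFIIB, stood at 5.63 and 6.37 times. Of 10 chaperonin TSSs 3 were in the set (interval 6.67% to 65.2%), with Cct8 at 4.75 and 7.08 times. DNA replication genes gave 5 of 43 (11.6%, 3.89 to 25.1), including Mcm4 of the replicative helicase at 4.32 and 6.49 times, and cell cycle genes 4 of 52 (7.69%, 2.14 to 18.5), including the centriole kinase Plk4 at 5.04 and 5.50 times. Of 40 ciliary TSSs only that of Ift88, an intraflagellar transport gene, was in the set (interval 0.0633% to 13.2%). Of the others, 20 were enriched only in Nsl1 and 0 only in Msl1. Enriched only in Nsl1 were also 20 proteasome, 21 spliceosome, 21 RNA polymerase II and general factor, 6 chaperonin, 16 DNA replication and 14 cell cycle TSSs. In the same order, 1, 17, 2, 0, 2 and 5 were enriched only in Msl1. Over all 22176 tested TSSs the counts were 2500 only in Nsl1 and 1310 only in Msl1.

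Numbered zinc finger genes, which encode DNA-binding proteins of which many are repressors, gave 24 of 365 TSSs (6.58%, 4.26 to 9.63). Another 77 were enriched only in Nsl1 and 11 only in Msl1, beside 2500 and 1310 of all 22176 tested TSSs. Zfp330 stood at 6.39 and 8.17 times, Zfp11 at 6.04 and 11.1 times and Zfp157 at 6.77 and 5.95 times, and 4 of the 24, with Zfp330 and Zfp157 among them, had a low local level.

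Lists of tissue-specific and developmental genes gave few or no members. None of 40 Hox TSSs (upper bound 8.81%), 88 TSSs of lineage regulators (upper bound 4.11%), 92 of keratins (upper bound 3.93%) or 1405 of chemoreceptors (upper bound 0.262%) was in the set. Apart from chemoreceptors, these intervals include the 3.33% over all TSSs, so that no difference from it was detectable. Of 61 core histone TSSs only that of Hist4h4 was in the set (1.64%, 0.0415 to 8.80). Of 32 TSSs of pluripotency genes none was in the set (upper bound 10.9%), an interval that also includes the 3.33%. In this list 0 were enriched only in Nsl1 and 6 only in Msl1, beside 2500 and 1310 of all 22176 tested TSSs. These were Fgf4, Klf2, Klf4, Klf5, Nr0b1 and Pou5f1, with Pou5f1, the gene of Oct4, at 5.19 times (3.95 to 6.71) for Msl1 and 1.32 times (0.767 to 2.12) for Nsl1. Nanog stood at 1.99 and 2.35 times and Sox2 at 1.53 and 1.35 times. The study counts Oct4, Nanog and Sox2 among its Msl1-bound genes. It called binding from peaks at promoters or gene bodies and from ChIP with PCR, a measure unlike the reads within 500 bases of 1 TSS. Of 22 TSSs of genes named in the study's ChIP-seq results none was in the set (upper bound 15.4%), an interval that includes the share over all TSSs.

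**Figure D5:**
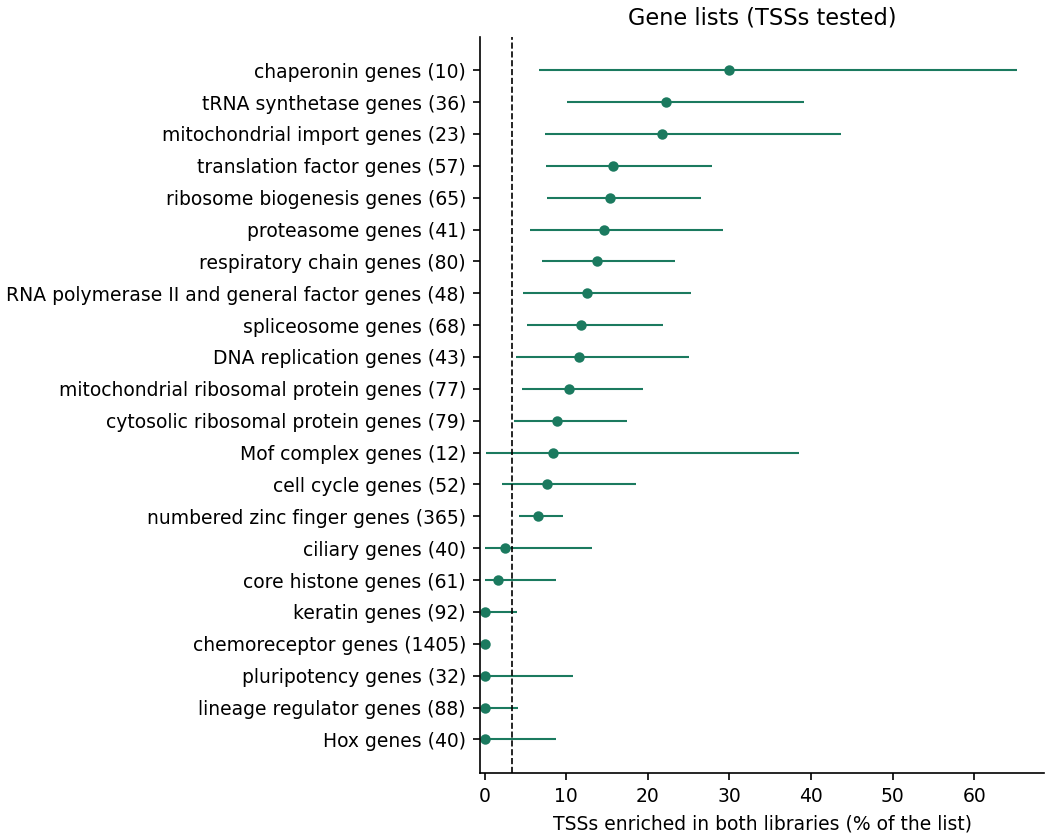
Percent of the TSSs of each gene list that were enriched in both libraries, with exact 95% intervals and the number of TSSs tested in brackets. The dashed line is the 3.33% over all tested TSSs, above which the intervals of tRNA synthetase, mitochondrial import, translation factor, ribosome biogenesis and respiratory chain genes lie entirely, among others, while chemoreceptor genes stand at 0.

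Among 12 TSSs of genes that encode subunits of the MSL and NSL complexes, only that of Msl3, an MSL subunit encoded on the X chromosome, was in the set. This share of 8.33% (0.211 to 38.5) has an interval that includes the 3.33% over all TSSs. The TSS of Msl3 held 18 Msl1 reads at 5.29 times (3.09 to 8.50) and 23 Nsl1 reads at 5.63 times (3.53 to 8.59). With at least 30 reads required in each library, it was not in the set. Enriched only in Msl1 were Msl1 itself, with 8.45 and 0.799 times, Msl2, with 5.70 and 3.64 times, Hcfc1 and Ogt, and only in Nsl1 stood Mcrs1, with 2.23 and 4.88 times. The gene of Nsl1, annotated as 1700081L11Rik, stood at 1.61 and 1.33 times, and that of Mof, annotated as Myst1, at 1.07 and 3.28 times.

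The set was spread over all chromosomes tested. On the autosomes it made up between 1.93% of the tested TSSs on chromosome 19 and 4.62% on chromosome 13, and on the X chromosome 34 of 918 (3.70%, 2.58 to 5.14). The cells were male, with a single X chromosome, and only 3 of these 34 held at least 30 reads in each library. Genes of the set had a median length of 21276 bases, near the 20842 of those enriched only in Nsl1 and below the 37876 of those enriched only in Msl1.

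The Msl1 library held 23888517 reads, of which 23853761 were nuclear, and 19483142 of the nuclear reads were distinct (81.7%). The Nsl1 library held 26084098 reads, of which 26071765 were nuclear, and 24883001 of the nuclear reads were distinct (95.4%). ChIP does not measure RNA, and the cell type was checked only as signal at marker genes. Of 12 mESC markers Pou5f1 and Klf4 reached 4 times the local level in Msl1 and none did in Nsl1, and none of 7 fibroblast feeder markers or 6 markers of other lineages did in either library. Over all tested TSSs the shares at this level were 9.8% in Msl1 and 15.2% in Nsl1. Counts this small beside these shares do not tell cell types apart.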

How the data were processed

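The authors aligned single-end reads of 1 library per antibody to mm9 and deposited 1 line per read with position, strand and a score, which is 255 on every line and was not used. The submitters' processing notes name CASAVA 1.8.2 and Bowtie 0.12.7, and the methods state that unique reads were used. No counts or input were among the files used here.

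Nuclear reads were reduced to 1 per position and strand, and 5′ ends were moved downstream by 105 (Msl1) or 67 bases (Nsl1). Each protein-coding gene of GENCODE vM1 on mm9 was given the TSS most transcripts share, then the most upstream. Of 22367 TSSs, 191 had no read between 5 and 50 kb in a library and were left out. Maxima were taken within 1 kb from reads smoothed over 150 bases, with a minimum of 50 reads in each library. Python 3.11.15, numpy 2.4.6, pandas 2.3.3, scipy 1.17.1, matplotlib 3.10.9 and samtools 1.23.1 were used, and counting, maxima and profiles were tested on simulated data.

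Members, 23 gene lists, 10 motifs and tests were chosen with earlier results of these data known. Genes named are the 6 highest in the lower library and those nearest each bound, both among TSSs with at least 50 reads within 500 bases in each library, up to 3 per list, and the ends of distances and 2 to 5 kb reads. Alternatives were all reads kept, thresholds of 3 and 6, at least 30 reads, a local level from 10 kb, the most upstream TSS, reads not moved, TSSs alone within 2 kb, and, chosen after seeing the data, a minimum local level and the removal of TSSs with over 20 reads per distinct read.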

Additional observations from a re-analysis of the deposited data

How the results depend on the processing

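The number of TSSs depended on the threshold, with 2298 at 3 times and 73 at 6 times the local level against 739 at 4 times. Most results moved with it: 24 of 44 at 3 times and 32 of 44 at 6 times, many of them member counts of gene lists, which follow the size of the set. At 3 times, reads from 2 to 5 kb downstream stood at 1.41 times for Msl1 and 1.03 times for Nsl1. At 6 times they stood at 1.496 and 1.19 times, with a median GC content of 61.0%, a median CpG ratio of 0.837 and divergent partners at 15.1%. The share with the Ets motif was 33.9% at 3 times and 43.8% at 6 times. With at least 30 reads in each library, 629 TSSs were left, the CpG ratio was 0.885, the share of X-chromosome TSSs fell to 0.327% and no gene of the Mof complexes was left. A local level from 10 kb gave 1.504 times for Msl1 downstream. With reads not moved, 2 of the 44 results moved, among them the highest bin of the Msl1 profile, which was centred 375 bases downstream. At TSSs alone within 2 kb, with reads moved, the distance between maxima was 345 bases. With all reads kept, the highest bins moved to 725 bases for Msl1 and 575 bases downstream for Nsl1, and 1 gene named in the study's ChIP-seq results entered the set. Without the TSSs of that set with over 20 reads per distinct read, they lay at 225 bases for Msl1 and 25 bases downstream for Nsl1. The latter is the bin next to the one centred at -25 bases reported above. As that set was selected from all reads, the TSSs left out need not be the 5 named above. The most upstream TSS of each gene and a minimum local level changed none of the results listed under them by more than their intervals or, for counts, by over 1.5 times. No paired analysis was possible because there was 1 library per antibody. The median of 47 Msl1 reads within 500 bases limits what a single TSS can show, and differences near the thresholds were not detectable at this depth.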
